A study of Mus musculus with 12 samples.

Results

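Sites of RBM25 immunoprecipitation were examined in 8 genes of epithelial junctions, adhesion and identity: Dsp, Fat2, Ptk2, Bsg, Anxa2, Ahnak, Slc9a3r1 and Elf3. The genes were taken by name from the site lists of the antibody (IP) and control antibody (IgG) libraries, and all 8 were found among the 1000 genes named there. They held 50 of the 4046 sites in those lists. Sites that shared 1 bp or more across lists were joined into regions, which gave 24 regions in the 8 genes.

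The libraries came from mouse inner ear organoids started from dissociated cochlear epithelium of mice at postnatal day 1 to 2 and embedded in Matrigel. Cultures were expanded for 8 to 10 days with EGF, bFGF, IGF and CHIR99021, a GSK3 inhibitor. They were then kept for 7 to 8 days with CHIR99021 and LY411575, a gamma-secretase inhibitor that blocks Notch signalling, and for 9 to 10 days with low EGF and bFGF. All groups shared this culture. Control organoids (genotype WT) received a control lentivirus, and depleted organoids (genotype Rbm-KO in the labels) received a lentivirus that knocks down Rbm25, so the depletion is a knockdown of whole cultures and not a knockout. Each genotype had 2 numbered libraries of each kind: IP with an RBM25 antibody, IgG, and Input. Nothing in the labels says whether the numbered libraries came from separate animals, so the spread between them may be technical.

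RBM25 is a nuclear RNA-binding protein that takes part in the choice of splice sites. Epithelial cells are held together by desmosomes, which are anchored to intermediate filaments, and by cadherin-based and tight junctions. They are held to the matrix by integrins, which signal through focal adhesions. In the cochlea such junctions seal the surface of the sensory epithelium between hair cells and supporting cells.

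The lists differed in length and in reproducibility. The 4 control lists held 430 to 594 sites and the depleted IgG lists 498 and 511, whereas depleted IP 1 held 813 and depleted IP 2 held 165. In control IP 1, 96.0% of sites overlapped a site of control IP 2, and in the IgG pairs the share was 81.2% (control) and 95.4% (depleted). In depleted IP 1 it was 0.738%, that is 6 sites, so every statement on depleted IP rests on lists with almost nothing in common. Rbm25 itself had 2 sites in depleted IP 1 (folds 1237 and 1873) and none in the other 7 lists, which gives no measure of the knockdown. The fold of a site is the authors' enrichment over the background of their peak caller. It is used here to rank sites within a list, and folds of different lists are set side by side without being on a common scale. Sequencing depth is unknown.

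Epithelial identity could be checked only by the presence of sites, which is not an expression level. Of 24 epithelial identity genes 8 had a site, namely Elf3, Klf4, Epcam, Krt8, Krt18, Krt5, Krt14 and Spint2. Each control IP list held 3 of the 24. Epcam, an epithelial surface adhesion molecule, was listed in every IP and IgG list except depleted IP 2. Cdh1, which encodes E-cadherin, had no site in any of the 8 lists. Among inner ear markers, 3 of 14 prosensory and supporting cell genes (Sox9, Sox10 and Otog) and 1 of 12 hair cell genes (Barhl1) had a site. None of them was in a control IP list. Otog was in control IgG alone, Sox9 in depleted IP 1 alone, and Sox10 in depleted IP 1 and depleted IgG 1. Barhl1 was in depleted IP 1 and in all IgG lists. Of 12 mesenchyme markers 6 had a site, and each control IP list held 2 of them. No glial (6 genes), neuronal (6), immune (5) or endothelial (5) marker had a site.

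In control organoids 7 of the 8 genes were listed in both IP libraries, each list holding 13 sites in the same 13 regions. Ahnak was the exception and was found in IgG alone. Of the 22 regions of these genes in the 4 control lists, 12 were in both IP lists and in neither IgG list, and they lay in Dsp, Fat2, Ptk2, Bsg, Anxa2, Slc9a3r1 and Elf3. Over all genes the same was true of 39.8% of 915 regions. Among the regions present in both control IP lists, 12 of 13 regions of these genes and 63.9% of all 570 regions were absent from IgG. The genes were chosen with earlier results of these data known, so these counts describe them and are no independent support.

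**Figure D1:**
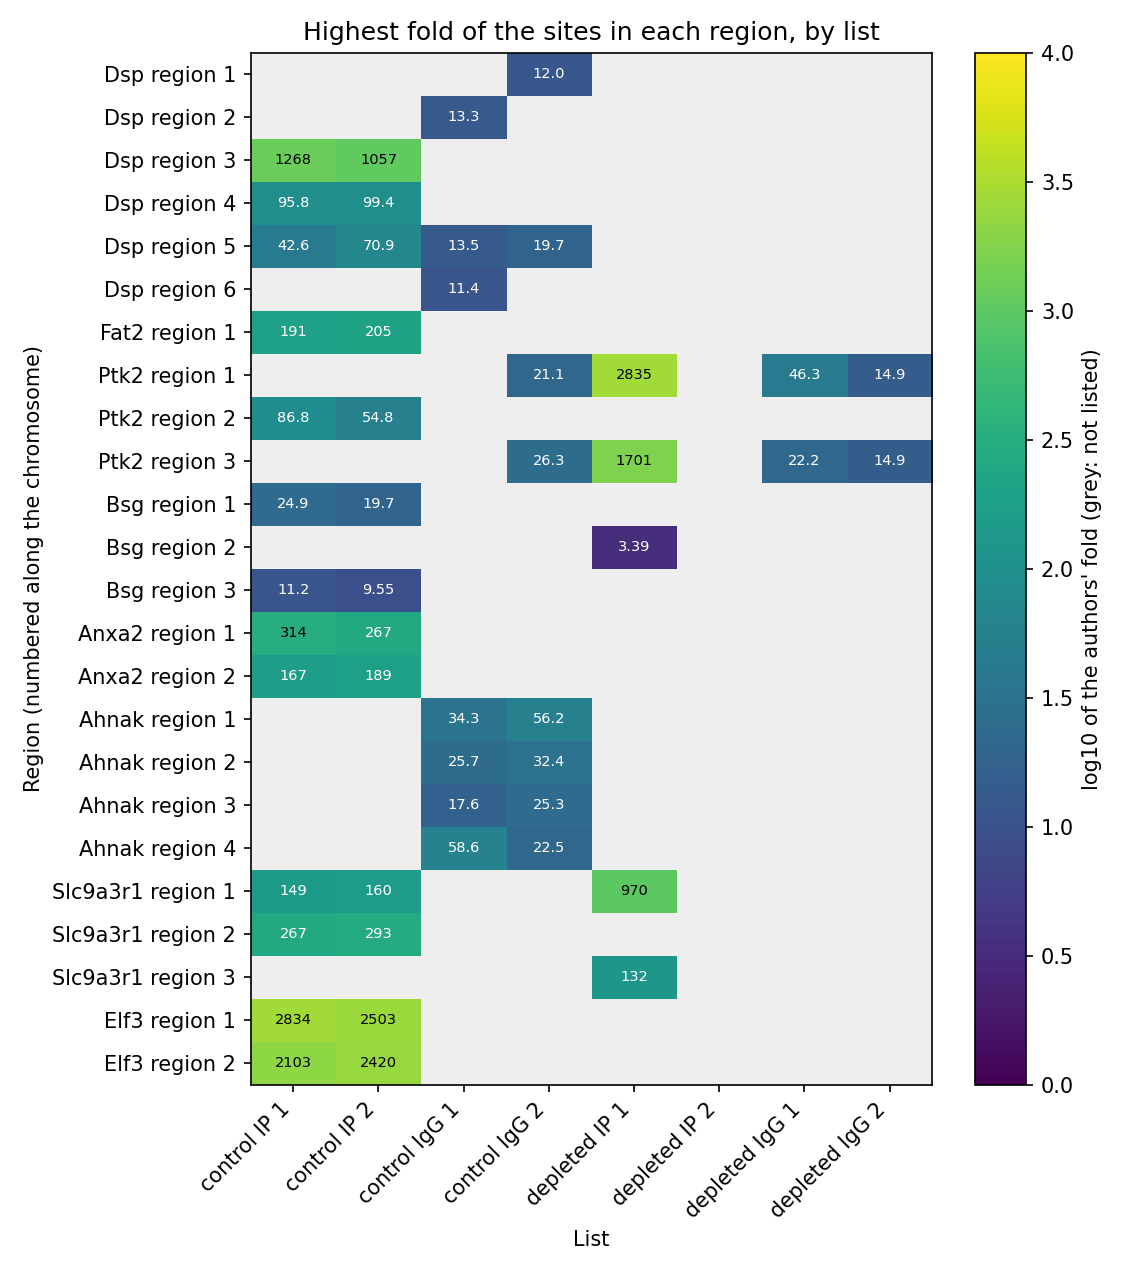
The authors' fold of each of the 24 regions (rows, numbered along the chromosome within a gene) in each of the 8 lists (columns), with colour on a log10 scale and grey where a region was not listed. The control IP columns are filled for every gene except Ahnak, depleted IP 2 is empty, while depleted IP 1 holds 5 regions in Ptk2, Bsg and Slc9a3r1.

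Among the junction proteins, Dsp encodes desmoplakin, which ties desmosomes to intermediate filaments. Its strongest region lay at chr13:38185096-38185262 with identical boundaries in both control IP lists. The fold was 1268 in control IP 1 and 1057 in control IP 2, above 82.2% and 75.7% of the sites of those lists. This region was in no IgG and no depleted list. A site of 7 bp at chr13:38189647-38189653 had folds of 95.8 and 99.4 and was likewise found in control IP alone.

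A further Dsp region, starting at 38191361 on chromosome 13, was the only region of the 8 genes shared by control IP and control IgG. Its left edge was the same in all 4 control lists, while its width was 357 bp in control IP 1, 708 bp in control IP 2 and 655 bp in each IgG list. The IP folds were 42.6 and 70.9 and the IgG folds 13.5 and 19.7. Within their own lists these folds ranked alike, above 21.5% and 22.6% of IP sites and above 17.2% and 30.7% of IgG sites. Dsp also had 3 IgG sites that were not shared between the IgG replicates, with folds of 11.4 to 13.3. Dsp sites began between 29880 and 41589 bp downstream of the RefSeq start site, in a gene interval of 47284 bp.

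Fat2, an atypical cadherin whose fly counterpart guides the collective migration of follicle cells, had a single region. It lay at chr11:55311486-55311876, was 391 bp wide with the same boundaries in both control IP lists, and began 381 bp downstream of the start site in the RefSeq promoter table. The RefSeq gene interval of Fat2 extends a further 25248 bp upstream of that start site, so the region need not lie at the start of every Fat2 transcript. The folds were 191 and 205, above 43.4% and 40.1% of the sites of their lists. No IgG list and no depleted list held a Fat2 site.

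Ptk2 encodes focal adhesion kinase, the tyrosine kinase that transmits integrin signals. It was listed at one place in control IP and at 2 other places elsewhere. The control IP site at chr15:73303820-73303897 had folds of 86.8 and 54.8, and in both lists the authors gave it a false discovery rate of 100%. It was the only region of the 8 genes in control IP with that rate. The Dsp region shared with IgG had rates of 52.66% and 59.47%. All other sites of the 8 genes had 16.21% in control IP 1 and 17.35% in control IP 2. No site of any gene had a rate below 16.19% in control IP 1 or 17.35% in control IP 2. The 2 other regions, at chr15:73298177-73298245 and chr15:73304407-73304547, occurred together and with identical boundaries in control IgG 2, depleted IgG 1, depleted IgG 2 and depleted IP 1. The nearer of them began 509 bp beyond the end of the control IP site.

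This pair of Ptk2 regions ranked high in depleted IP 1 and below the middle of each IgG list that held it. The folds were 2835 and 1701 in depleted IP 1, at a false discovery rate of 1.82% and above 87.7% and 79.2% of its sites. They were 21.1 and 26.3 in control IgG 2, 46.3 and 22.2 in depleted IgG 1, and 14.9 in both regions of depleted IgG 2, each at a rate of 100%. The rate of 1.82% was not particular to Ptk2. Both Slc9a3r1 sites of depleted IP 1 had it too, with folds of 970 and 132. These sites and the Ptk2 pair had a score of 3100, and 62.2% of that list had this score or more. The ranks in the 3 IgG lists were above 15.7% to 45.4% of sites. The pair was high in a single IP library of depleted organoids and was not listed in the other, so no difference between antibodies is shown by replicates. Of 1548 regions in all genes, 11 had this same set of 4 lists, including both Ptk2 regions.

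**Figure D2:**
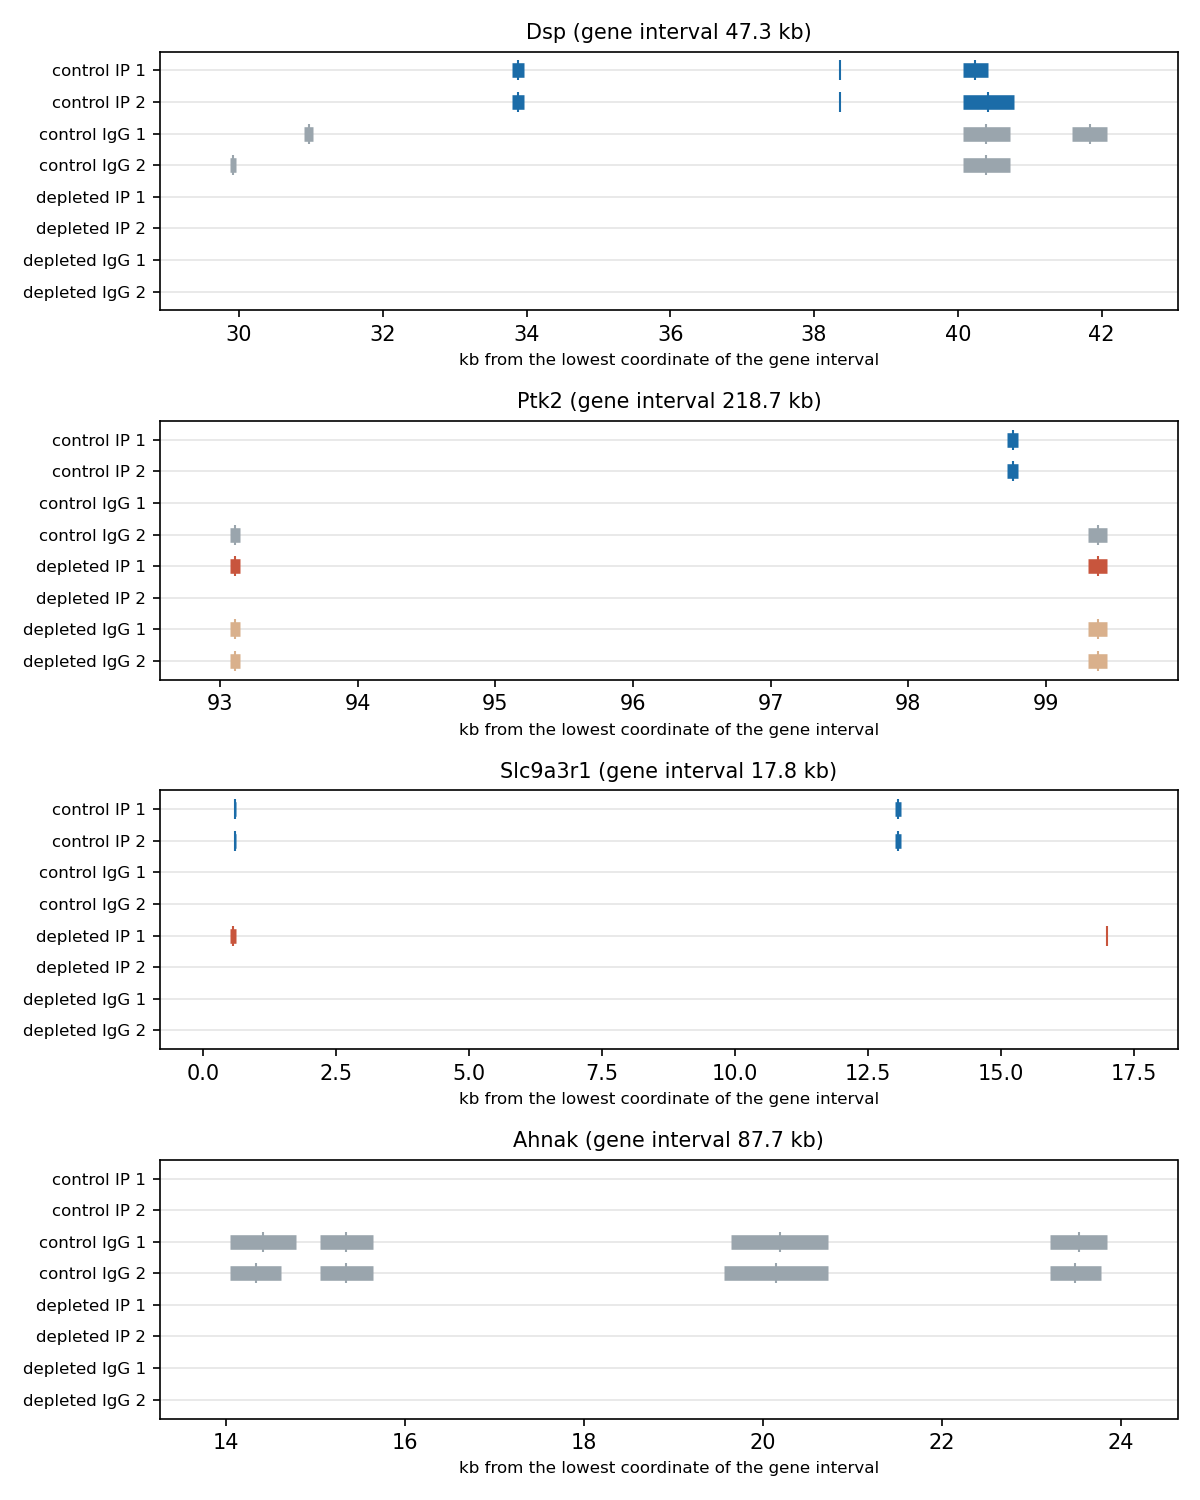
Positions of the sites of Dsp, Ptk2, Slc9a3r1 and Ahnak in each of the 8 lists, in kb from the lowest coordinate of the gene interval. Bars span the sites and a vertical tick marks each centre, so that sites of a few bp remain visible. Control IP and the other lists use different Ptk2 regions, and the wide Ahnak sites are in control IgG alone.

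Bsg encodes basigin (CD147), a cell surface glycoprotein that escorts monocarboxylate transporters to the plasma membrane. It had the lowest folds of the 7 genes in control IP. The region at chr10:79710681-79710882 had folds of 24.9 and 19.7, and the region at chr10:79711494-79711681 had folds of 11.2 and 9.55, each above only 4.55% to 15.5% of the sites of its list. All 4 sites had a score of 3100 or more, as did 78.3% and 79.4% of the sites of these lists. The score is the caller's p on a log10 scale, multiplied by -10, so a low fold and the top score occurred together. In depleted IP 1 a site of 17 bp at chr10:79710904-79710920 had a fold of 3.39, lower than all but 0.123% of that list. It began 21 bp beyond the end of the first region, so Bsg stayed in the list of genes while neither of its control regions did.

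Anxa2 encodes annexin A2, a calcium-dependent membrane-binding protein that works in a complex with S100A10. It had a region of 44 bp at chr9:69467347-69467390 with folds of 314 and 267, and a region at chr9:69479491-69479696 with folds of 167 and 189. These folds were near the middle of their lists, above 37.1% to 56.1% of sites. Neither region was in an IgG or depleted list. The authors assigned the first to transcript NM_007585 and the second to a UCSC transcript of the same gene.

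Ahnak encodes a very large scaffold protein that binds the annexin A2 and S100A10 complex under the plasma membrane. Its pattern was the opposite of that of Anxa2, with 4 regions shared by the control IgG replicates and none in any IP list or in depleted IgG. The folds in control IgG 1 and 2 were 34.3 and 56.2 at chr19:9003329-9004059, 25.7 and 32.4 at chr19:9004325-9004920, 17.6 and 25.3 at chr19:9008844-9010006, and 58.6 and 22.5 at chr19:9012492-9013133. All 8 sites had a false discovery rate of 100%. They were wide, from 563 to 1163 bp, against a median width of 162 and 160 bp in these lists and a 90th percentile of 365 and 372 bp. They covered a stretch beginning 14045 bp downstream of the RefSeq start site.

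The 4 Ahnak regions were the whole of the set shared by the control IgG replicates and missing from control IP. This was 4 of 22 regions against 18.9% over all genes, a share near the background. The count was 7 without control IgG 1 and 6 without control IgG 2, since Dsp and Ptk2 sites of a single IgG list then entered it. The 12 mesenchyme markers together had 21 and 20 sites in control IgG, 2 and 3 in control IP, 6 and 0 in depleted IP, and none in depleted IgG. They did not all go with Ahnak: Col1a2 and Col3a1 were in both control IgG lists and in no control IP list, Col1a1 was in all 4 control lists, and Sparc was in each control IP list but not in IgG. Their part in the Ahnak result was not tested.

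Slc9a3r1 encodes NHERF1 (EBP50), a PDZ scaffold that links membrane proteins to ezrin in microvilli. It was the only one of the 8 genes with a region kept between control and depleted IP. At chr11:115163850-115163951, just downstream of the RefSeq start site, both control IP lists had a site of 30 bp with folds of 149 and 160, and depleted IP 1 had a site of 102 bp with a fold of 970. All 3 sites ended at the same base. The folds ranked above 39.9% and 34.1% of sites in control IP and above 69.2% in depleted IP 1. This set of 3 lists was shared by 11 of the 1548 regions.

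The second Slc9a3r1 region, at chr11:115176351-115176458, had folds of 267 and 293 and was listed in control IP alone. A site of 22 bp at chr11:115180315-115180336 with a fold of 132 was listed in depleted IP 1 alone. No IgG list held a Slc9a3r1 site in either genotype. The gene therefore had 2 sites in every IP library except depleted IP 2, which had none.

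Elf3 encodes an ETS transcription factor expressed mainly in epithelia, and it stood highest among the 8 genes in control IP. The region at chr1:135254291-135254380 had folds of 2834 and 2503, and the region at chr1:135255975-135256083 had folds of 2103 and 2420. All 4 sites were above at least 88.4% of the sites of their lists. The replicates ordered the regions alike, and no IgG or depleted list held an Elf3 site. The second region lay 2389 bp and the first 4092 bp downstream of the RefSeq start site, within a gene interval of 4899 bp.

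**Figure D3:**
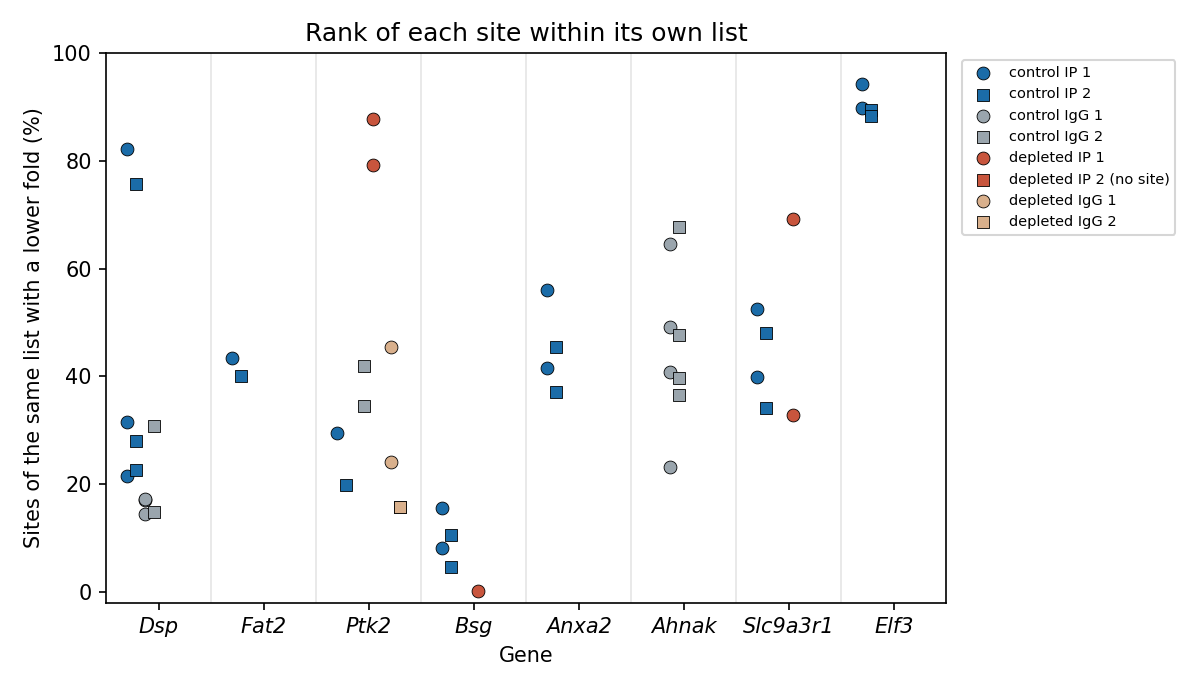
Rank of each of the 50 sites within its own list, as the percentage of that list's sites with a lower fold (vertical axis), by gene (horizontal axis). Circles are replicate 1 and squares replicate 2. Elf3 sites sit at 88.4% or higher in control IP and Bsg sites at or below 15.5%, and the control IP replicates of a region lie within about the same part of the scale.

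The control IP folds of these genes were reproducible. In the 13 regions listed in both control IP lists, the higher fold exceeded the lower by a factor of 1.04 to 1.66, with a median of 1.15, and replicate 1 was the higher in 6 of 13. In the 5 regions listed in both control IgG lists the factor was 1.26 to 2.61. Of the 26 control IP sites, 22 had a score of 3100 or more and 2 (both Ptk2) a false discovery rate of 100%. All 15 control IgG sites and all 4 depleted IgG sites had a rate of 100% and none reached that score. Over all genes 84.2% and 86.7% of control IgG sites and 45.6% and 43.8% of depleted IgG sites had that rate, and 5.42% to 9.07% of the sites of an IgG list reached the score, so in control IgG these values were close to those of the whole lists. Median width of the sites of these genes was 109 bp in control IP and 596 bp in control IgG, where Ahnak gave 4 wide sites in each list. Over the whole lists the medians were 115 and 118 bp in control IP and 162 and 160 bp in control IgG.

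The comparison of IP between genotypes asked which control sites were still listed after knockdown. Of the 17 regions of these genes in the 4 IP lists, 12 were in both control lists and in neither depleted list, against 27.9% of 1375 regions over all genes. Among regions in both control IP lists, 12 of 13 were not listed after depletion, against 67.4% of 570 over all genes. The lost regions lay in all 7 genes listed in control IP, and the region kept was that of Slc9a3r1. Dsp and Elf3 were among the genes already known to have lost several regions when the 8 were chosen, so this count is not independent of the choice. The reverse set, 0 regions against 0.145% over all genes, was fixed at 0 because depleted IP 2 listed none of the 8 genes. Without depleted IP 2 it held 4 regions, but the share over all genes was not counted under that setting. Depleted IP 1 was the longest list, with 813 sites, so the 4 regions are not read as a trait of these genes.

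Counting genes in place of regions made the loss smaller. Dsp, Fat2, Anxa2 and Elf3, 4 of 7 genes, had no site in either depleted IP list. All 7 were listed in each control IP library. Over all genes the count was 248 of 892 (27.8%), but the 892 include genes listed only after depletion, which could not be lost. The control IP lists named 430 and 432 genes, so 27.8% is too low a background for the 7 genes. No excess of lost genes is therefore shown. Bsg, Ptk2 and Slc9a3r1 had sites in depleted IP 1, of which 1 of 5 overlapped a control IP region. Depleted IP 2 listed none of the 8 genes, so no site of them remained in that library. The shorter list of this library moved with the result, and its part was not tested.

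Within depleted organoids no region of these genes separated IP from IgG in both replicates. Of 5 regions, 0 were in both IP lists and in neither IgG list (0.266% of 1127 regions over all genes), a count again fixed by the empty depleted IP 2, and 0 were in the reverse set (12.3%). With depleted IP 1 as the only IP list, 3 regions were in IP and not in IgG, namely the Bsg region and 2 in Slc9a3r1. With depleted IP 2 as the only IP list there were 0, and the 2 Ptk2 regions were then in IgG and not in IP. Shares over all genes were not counted with a single IP list. Of 1548 regions in all genes, 399 were in depleted IP 1 alone, so the 3 regions are not read as a trait of these genes.

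In the IgG libraries 5 of 10 regions were listed in both control lists and in neither depleted list, against 11.6% of 701 regions over all genes. These were the 4 Ahnak regions and the Dsp region that control IP also held. The mesenchyme marker sites given above went from 21 and 20 to none between the same lists, and their part in this result was not tested. No region was in both depleted IgG lists and in neither control IgG list, against 21.0% over all genes. Ptk2 was the only one of the 8 genes in depleted IgG, and its pair of regions was also in control IgG 2. Loss from the lists after knockdown was thus seen with the control antibody too for Dsp. Ahnak, which had no IP site, was lost from IgG alone. Fat2, Bsg, Anxa2, Slc9a3r1 and Elf3 had no IgG site that could be lost.

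**Figure D4:**
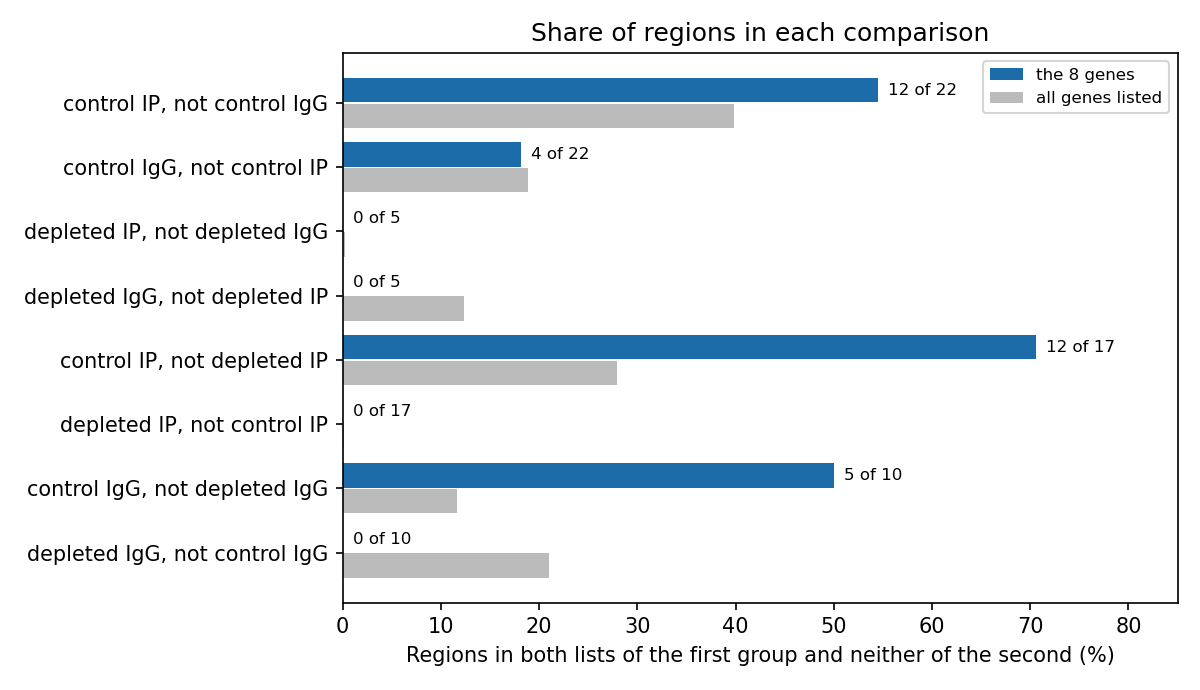
Percentage of regions found in both lists of the first group and in neither list of the second, for the 8 genes (blue, with the number of regions) and for all genes listed (grey), in 8 comparisons. The largest blue bars are control IP not depleted IP (12 of 17), control IP not control IgG (12 of 22) and control IgG not depleted IgG (5 of 10).

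Site numbers per gene did not allow a test to pass a threshold. An exact permutation test of 2 libraries against 2 has a smallest two-sided p of 0.333, which was the value for Anxa2, Elf3, Fat2, Bsg and Slc9a3r1, and with the opposite sign for Ahnak, in control IP against control IgG. Anxa2, Elf3, Bsg and Slc9a3r1 had 2.0 ± 0.0 sites in control IP and Fat2 had 1.0 ± 0.0, with none in control IgG (SD, n = 2 each, exact test). Ahnak had 4.0 ± 0.0 sites in control IgG and none in control IP. Dsp had 3.0 ± 0.0 sites in control IP and 2.5 ± 0.707 in control IgG, a difference smaller than the spread in IgG.

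The pattern over the 8 lists was common for some of these genes and rare for others. Fat2, Anxa2 and Elf3 were listed in both control IP libraries and nowhere else, as were 169 of the 1000 genes. Bsg and Slc9a3r1 shared their set of lists, both control IP lists and depleted IP 1, with others, 20 genes in all having it. Dsp was 1 of 5 genes listed in exactly the 4 control lists, Ahnak 1 of 42 listed in exactly the control IgG lists, and Ptk2 alone had its set of 6 lists.

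Other genes of the same structures were taken from lists of desmosome, adherens and tight junction, focal adhesion, basigin, annexin, ERM scaffold, FAT cadherin and epithelial identity genes. These lists held 141 further gene names, of which 134 were in the RefSeq gene table. Some were other names of the same gene, such as Nherf1 and Ebp50 for Slc9a3r1. Of the 141 names, 15 had a site in any of the 8 lists. Of these, 11 had a site in a control list. Among the 11, none was listed in both control IP libraries and in neither control IgG library, against 39.0% of 649 genes over all. Each control IP list held only 4 of the 11, so the others could not enter this set. In the reverse set there were 4 (19.0% over all). The 5 of 8 named above as free of control IgG sites, Fat2, Bsg, Anxa2, Slc9a3r1 and Elf3, were therefore not joined by others of these lists.

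The further genes found in control IP also had IgG sites. Epcam had highest folds of 94.0 and 190 in control IP against 14.1 and 15.5 with control IgG. After depletion it had 25.2 in IP 1, with 63.5 and 45.7 in the IgG lists. Mmp14, a membrane-anchored matrix metalloprotease, had 120 and 176 in control IP and 9.30 and 9.73 with control IgG. After depletion it had 7.80 in IP 1, with 36.96 and 32.9 in the IgG lists. In all control lists, IP and IgG alike, the Epcam and Mmp14 folds were below the median of the list. The medians were 241 and 323 in control IP and 35.2 and 33.7 in control IgG. S100a13, a calcium-binding S100 protein, was in all 8 lists, with 211 and 1180 in control IP and 20.5 and 67.4 with control IgG. After depletion it had 7.07 in IP 1 and 9525 in IP 2, with 20.4 and 134 in the IgG lists. Krt18, an intermediate filament keratin, had 43.8 and 132 in control IP, 10.7 in control IgG 2, and 14.8 and 14.9 in depleted IgG.

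The IgG-only genes of control organoids were Ppl, Itgb1, Klf4 and Krt5. Ppl, the desmosomal plaque protein periplakin, had folds of 29.3 and 7.87, Klf4, an epithelial transcription factor, 69.2 and 56.1, and Krt5, a basal keratin, 80.8 and 112. Like Ahnak, these 3 were in no depleted list. Itgb1, the integrin beta 1 chain that acts upstream of focal adhesion kinase, had 15.1 and 13.1 in control IgG and 1910 and 2905 in depleted IgG, and no IP site. Pvrl2 (nectin 2) and Spint2, a protease inhibitor, were listed in both depleted IgG lists and in neither control IgG list, with folds of 5.56 and 6.08 and of 10.1 and 12.5, and Pvrl2 also had a fold of 280 in depleted IP 1. Keratin genes have similar sequences, so which keratin gene a site belongs to is uncertain.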

How the data were processed

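Per the submitters' processing notes, cutadapt 1.9.3, HISAT2 2.0.4 and the build mm8 were used, and peak names in the files begin with MACS. The caller's version, settings and background library were not given in the sources used here. The authors deposited 1 list of mRNA sites per library. The fold is the authors' ratio over the caller's background, the score is log10 of p multiplied by -10 per the file headers, the false discovery rate is deposited in percent, and width in bp is their end minus start. All 50 sites lay inside the GRCm38 RefSeq interval of their gene, so coordinates appear to be on GRCm38, not mm8. They are printed counting from 1. Start sites came from the RefSeq promoter table (GRCm38.p6), which held 6 of the 8 genes. Exons, introns and site sequences were not analysed here.

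Sites sharing 1 bp or more were joined into regions over the lists compared (Python 3.11.15, pandas 2.3.3). Region counting was tested on simulated lists. A region was counted for a group when both of its lists held it and neither list of the comparison group did. The Input lists were subsets of the IP lists and entered only as an alternative. The genes, gene lists and comparisons were chosen with earlier results of these data known. Named genes were the 8, plus genes of the lists with a site in both libraries of a group. Alternatives were another overlap, genes for regions, filters on fold, width and false discovery rate, and leaving out each library.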

Additional observations from a re-analysis of the deposited data

How the results depend on the processing

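Counts of regions of the 8 genes were recomputed under each alternative. Apart from counts of genes, shares over all genes were not computed under these alternatives or with a list left out. The 12 regions in control IP and not in IgG became 5 when genes were counted, 3 when each list was limited to its upper 50% by fold (2 of Elf3, 1 of Dsp) and 7 with sites of 100 bp or more. The 12 in control IP and not in depleted IP became 4 with genes and 3 with the fold filter. The 4 in control IgG and not in IP became 1 with genes, 0 with the fold filter and 0 with sites of a rate under 100%, since all had 100%. The 5 in control IgG and not in depleted IgG became 2, 0 and 0 under the same settings. Apart from genes, these settings leave fewer sites. The rate filter also kept 12 regions in control IP and not in IgG, but dropped Ptk2 and admitted the Dsp region shared with IgG. With the Input lists, or with sites within 100 bp merged (chosen after seeing the Bsg sites), 11 regions were lost from depleted IP.

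Leaving out 1 list at a time gave 12 to 12 regions in control IP and not in IgG, 4 to 7 in the reverse set (7 without control IgG 1), 12 to 13 in control IP and not in depleted IP, and 5 to 7 in control IgG and not in depleted IgG. The sets at 0 ranged from 0 to 3 for depleted IP not IgG (3 without depleted IP 2), 0 to 2 for its reverse (2 without depleted IP 1), 0 to 4 for depleted IP not control IP (4 without depleted IP 2) and 0 to 2 for depleted IgG not control IgG (2 without control IgG 2). Under the other settings they were 0. No paired analysis was possible because the counts come from no fitted test, and pairing same-numbered lists leaves each counted set as it is. No gene passed 0.05 in the exact test of site numbers, which 2 libraries against 2 cannot do. Depth is unknown, so an unlisted site is not shown to be absent.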

Other observations

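Input lists added no site of these genes. Each Input list was a subset of the rows of its culture's IP list. It held 12 of the 13 sites in each control culture, lacking the Dsp region that overlapped IgG. In depleted culture 1 it held 3 of 5 sites, lacking both Ptk2 regions, and in depleted culture 2 neither list held a site of the 8 genes.

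Further junction and epithelial genes were listed in a single library, and are named here after their values were seen. Depleted IP 2, which held none of the 8 genes, listed 2 sites each in Tjp1, which encodes the tight junction protein ZO-1 (fold up to 858), and in Krt8, the keratin partner of Krt18 (fold up to 1675). Control IgG 2 listed Dsg1b, a desmosomal cadherin, and Krt14, a basal keratin, each with a fold of 67.3, and control IgG 1 listed Fat4, a FAT cadherin, with a fold of 30.2.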
